A study of Mus musculus with 8 samples.

Results

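The genes of retinoic acid synthesis and reception described here are 9 of the 20254 genes of the deposited table, taken by name: Rdh10, Aldh1a2, Aldh1a1, Cyp26b1, Crabp1, Crabp2, Rara, Rarb and Rarg. All 9 passed the filter on low values and were tested. They were measured by RNA sequencing of polyadenylated transcripts in nephron progenitor cells, the self-renewing cells of the embryonic kidney that form the epithelium of the nephron. The cells came from mouse kidneys at embryonic day 17.5 and were sorted by the green fluorescence of the Six2EGFPcre transgene, which expresses Cre recombinase under control of the progenitor transcription factor gene Six2. In 4 Mutant libraries the genotype was VHLNP-/-, homozygous for deletion of Vhl in the nephron progenitors. In 4 Control libraries it was VHLNP+/-, heterozygous for the same deletion, so both groups carried the Cre transgene and a deleted allele. Deletion was thus driven in the Six2 lineage, and cells of other lineages in the suspension would keep Vhl. Whether the 4 libraries of each genotype derive from separate animals or litters is not stated in the labels, and p-values cover only the spread among these samples.

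Retinoic acid is made from vitamin A (retinol) inside cells. Retinol is first oxidised to retinal, a reversible step, and retinal is then oxidised irreversibly to retinoic acid by retinal dehydrogenases. The product binds nuclear receptors (RARs), which pair with retinoid X receptors (RXRs) on DNA, and cytochrome P450 enzymes of the CYP26 family clear it. In the developing mouse kidney, retinoic acid reception in stromal cells is known to sustain expression of the receptor gene Ret at the tips of the branching ureteric bud.

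The element that the receptors bind is a direct repeat of a short motif, and it stands in the promoters of some of the pathway's own genes. RefSeq promoters of the GRCm38.p6 build, running from 250 bases before to 50 bases after a start site, were given for 7 of the 9 genes, with 12 start sites in all. Rdh10 and Crabp2 had none there, so their promoters were not searched. A repeat with 5 bases between its copies (written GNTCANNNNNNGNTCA, searched on both strands) was found in 1 of the 12, a promoter of Rarb, and in 283 of all 32851 promoters (0.861%). A repeat with 2 bases between them (GNTCANNNGNTCA) was found in 0 of the 12 and in 1.117% of all promoters. In both, the base before the G of each copy belongs to the copy but was left free. It is thus written as a further N between the copies, and the capitals below include it. The core bound by hypoxia-inducible factors, the proteins that the Vhl product marks for degradation, was searched as ACGTG or GCGTG and was found in 7 of the 12 (58.3%) and in 43.8% of all promoters. The promoters with the core belong to 5 of the 7 genes. The windows of Rara start sites 1 and 2 overlap and share a match, so the 12 are not independent. Sequences are shown for the Rarb promoter, for that of Cyp26a1, which encodes the clearing enzyme best known as a retinoic acid target, and for that of Aldh1a2, the most abundant of the 9 transcripts. Each runs 5′ to 3′ over the 250 bases before the start site, with the repeat and the core in capitals.

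Rarb, chr14:16575477-16575726, minus strand: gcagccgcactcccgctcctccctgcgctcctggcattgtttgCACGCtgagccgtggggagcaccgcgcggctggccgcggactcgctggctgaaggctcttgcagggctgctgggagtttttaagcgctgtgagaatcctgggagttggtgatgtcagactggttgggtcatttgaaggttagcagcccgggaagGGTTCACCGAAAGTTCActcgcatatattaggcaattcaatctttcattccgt

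Cyp26a1, chr19:37697558-37697807, plus strand: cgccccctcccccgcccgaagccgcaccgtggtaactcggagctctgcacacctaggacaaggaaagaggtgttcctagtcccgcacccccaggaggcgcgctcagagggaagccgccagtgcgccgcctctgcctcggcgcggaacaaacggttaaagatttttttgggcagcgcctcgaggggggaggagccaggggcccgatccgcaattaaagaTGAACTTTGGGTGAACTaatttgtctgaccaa

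Aldh1a2, chr9:71215539-71215788, plus strand: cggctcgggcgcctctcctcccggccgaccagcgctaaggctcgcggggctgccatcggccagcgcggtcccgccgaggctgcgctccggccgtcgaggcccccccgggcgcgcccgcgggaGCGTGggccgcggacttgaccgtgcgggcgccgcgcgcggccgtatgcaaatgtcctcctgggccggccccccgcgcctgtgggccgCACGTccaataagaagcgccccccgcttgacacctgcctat

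In the Rarb promoter the repeat reads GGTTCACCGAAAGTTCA and lies from 53 to 37 bases before the start site. In the Cyp26a1 promoter it lies from 32 to 16 bases before the start site on the opposite strand, and a core lies from 4 to 8 bases after the start site, beyond the stretch printed. The Aldh1a2 promoter held 2 matches to the core and no repeat. A match is a string of letters in this window, and no binding was measured.

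Reads assigned to genes numbered 37252683 to 46515762 in a library. Levels are given as normalised reads, which are reads divided by a size factor for each library, and each log2 fold change is Mutant minus Control after adding 1 normalised read, an offset that shrinks the change of genes with few reads. Vhl, the targeted gene, had 320, 285, 331 and 336 normalised reads in Mutant libraries 1 to 4 and 1134, 1379, 1208 and 1180 in Control libraries 1 to 4. It fell by 1.94 on the log2 scale (limma adjusted p = 4.22e-08). The 10 markers of nephron progenitors together stood at 103319 to 111667 normalised reads in Mutant libraries and at 105575 to 115340 in Control libraries, the most abundant of the marker lists. Of the 10, 1 was called higher and 3 lower, against 5.4% higher and 3.03% lower of all tested genes. The 12 markers of kidney stroma, none at 0, stood at 30628 to 62579 in Mutant and 34751 to 78405 in Control libraries. Transcripts of stromal marker genes were thus present in both groups, and which cells they came from was not tested. The other lists summed to 27707 to 34533 in Mutant and 29421 to 35108 in Control libraries for early nephron, and to 2121 to 3725 in Mutant and 2427 to 9049 in Control libraries for podocytes. They summed to 1967 to 2522 in Mutant and 1408 to 2675 in Control libraries for endothelium, and to 596 to 962 in Mutant and 532 to 1014 in Control libraries for leukocytes. For neurons and neural crest the sums were 1278 to 1969 in Mutant and 1236 to 1801 in Control libraries, and for the 3 erythroid markers measured they were 63 to 130 in Mutant and 76 to 129 in Control libraries, with Hba-a1 at 0 in 7 of the 8. Of these lists, 1 early nephron marker was called lower, 1 podocyte marker higher and 1 lower, and 1 endothelial marker higher. In such bulk samples, fewer cells of a type and less RNA per cell cannot be told apart. Mutant 2 and Control 3 had the lowest summed markers of their groups for stroma, maturing tubule and ureteric bud, and also for early nephron, endothelium and leukocytes. Xist, which is transcribed in female cells, stood at 51.9 normalised reads in Mutant 2 and 8.8 in Control 2, and between 60017 and 111673 in the other 6 libraries, so the libraries of each group did not all come from the same animals.

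Of the 9 genes, Rdh10 rose in Mutant cells, 0 fell, and 8 were not called at an adjusted p under 0.05 in limma. Over all 15381 tested genes 8.43% were called, 5.4% higher and 3.03% lower in Mutant libraries. The median log2 fold change of the 9 was -0.02 (4 positive and 5 negative), against -0.01 over all tested genes. At an unadjusted p under 0.05 there were 2 genes, Rdh10 and Rarg, and 23.3% of all genes. The Mutant and Control libraries did not overlap for 1 of the 9 genes, Rdh10, and for 15.3% of all tested genes. The authors' deposited table calls 12.5% of its genes, and of the 9 it calls Rdh10 alone.

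**Figure D1:**
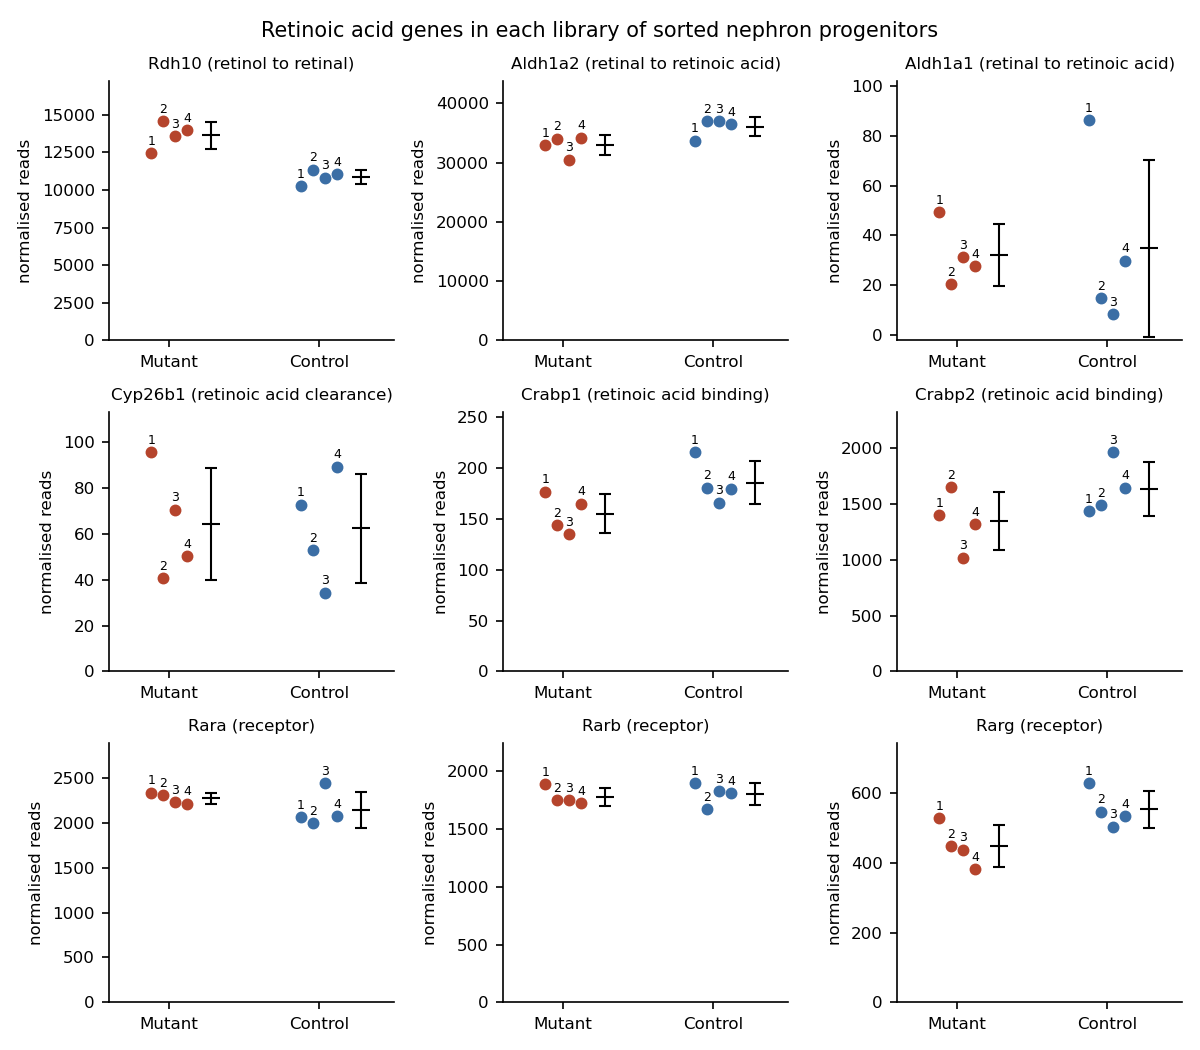
Normalised reads (linear vertical axis) of the 9 genes in each of the 4 Mutant and 4 Control libraries, 1 panel a gene, with the mean and SD of each group (bars, n = 4). The Mutant libraries of Rdh10 all lie above its Control libraries, while the groups overlap in the other 8 panels.

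Rdh10 encodes the retinol dehydrogenase that carries out the first oxidation step in mouse embryos. In mm10 it spans 16105774 to 16133734 of chromosome 1 on the plus strand, with no overlapping annotated gene. Its level was 12418, 14576, 13573 and 13948 normalised reads in Mutant libraries 1 to 4, and 10233, 11343, 10816 and 11045 in Control libraries 1 to 4. The lowest Mutant library, Mutant 1, was above the highest Control library, Control 2. The means were 13629 ± 907 in Mutant and 10859 ± 470 in Control cells (SD, n = 4 each). Rdh10 rose 1.25-fold, a log2 fold change of 0.33 (SE 0.06, 95% interval 0.19 to 0.46, limma adjusted p = 0.00736). The authors' deposited table gives the same fold change to this precision, 0.33, with an adjusted p of 4.91e-06. With each library left out in turn the fold change lay between 0.29 and 0.37 and the adjusted p was at most 0.0351. Without Mutant 2 and Control 3 together it was 0.29 with an adjusted p of 0.0563, which ends the call.

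Dhrs3, which is not one of the 9, encodes the reductase that returns retinal to retinol and is known in mice as a gene that retinoic acid induces. Among the wider retinoid genes it was the only one called, and it fell. Its level was 1492, 1678, 1376 and 1204 normalised reads in Mutant libraries 1 to 4, and 1982, 1765, 1986 and 1764 in Control libraries 1 to 4. Every Mutant library was below every Control library. The means were 1438 ± 200 in Mutant and 1874 ± 127 in Control cells (SD, n = 4 each), a log2 fold change of -0.39 (SE 0.09, 95% interval -0.60 to -0.18, limma adjusted p = 0.0266). The authors' deposited table gives -0.38 with an adjusted p of 0.00351. The call was lost without Mutant 3, Mutant 4, Control 1, Control 3 or Control 4, each left out alone, with adjusted p-values up to 0.0763 and fold changes between -0.47 and -0.31 over all such omissions. The enzymes of Rdh10 and Dhrs3 act on the same step in opposite directions. The ratio of Rdh10 to Dhrs3 normalised reads was 8.32, 8.69, 9.86 and 11.6 in Mutant libraries 1 to 4, and 5.16, 6.43, 5.45 and 6.26 in Control libraries 1 to 4. This ratio was formed after both values were seen, is not corrected for transcript length, and is given without a test.

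Of the retinal dehydrogenase genes, Aldh1a2 was among the most abundant transcripts of the cells and Aldh1a1 was close to the minimum for testing, and neither was called. Aldh1a2 encodes the retinal dehydrogenase on which the early mouse embryo depends. It lies on chromosome 9 from 71215789 to 71296243 on the plus strand, with a processed pseudogene, Gm48124, annotated inside it on the other strand. Its level was 32971, 34064, 30499 and 34227 normalised reads in Mutant libraries 1 to 4, and 33683, 36998, 37018 and 36517 in Control libraries 1 to 4. The groups overlapped through Control 1, whose value lay below Mutant 2 and Mutant 4. The means were 32940 ± 1720 in Mutant and 36054 ± 1598 in Control cells (SD, n = 4 each). The log2 fold change was -0.13, with a 95% interval from -0.26 to 0.0022 and a limma adjusted p of 0.224, which leaves room for a difference of that size.

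Aldh1a1 encodes another retinal dehydrogenase, best known in mouse from the eye and adult tissues, and lies on chromosome 19 from 20492715 to 20643465. Its level was 49.3, 20.4, 31.2 and 27.5 normalised reads in Mutant libraries 1 to 4, and 86.4, 14.7, 8.3 and 29.8 in Control libraries 1 to 4. Control libraries held both the highest and the lowest value. The Mutant mean was 32.1 ± 12.3 and the Control mean 34.8 ± 35.5 (SD, n = 4 each), so the Mutant mean was lower although the log2 fold change was 0.33. That fold change had a 95% interval from -1.12 to 1.78 and a limma adjusted p of 0.81, so the interval ran from 0.46 to 3.44 times the Control level and no difference within it was detectable at this spread. Its sign also turned without Control 3, to -0.14. Its longest open reading frame is 91.6% identical over 1506 bases to that of Aldh1a7. The transcript C730002L08Rik and the processed pseudogene Gm6684 overlap Aldh1a1 on the other strand. Use of strand and the treatment of reads shared between copies were not given in the sources used here, which makes the counts of Aldh1a1 uncertain.

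Per kilobase of annotated exon, Aldh1a2 made up 99.26 ± 0.17% of the summed level of Aldh1a1, Aldh1a2 and Aldh1a3 in Mutant and 99.35 ± 0.24% in Control cells (SD, n = 4 each). Lengths here and below are those of all annotated exons of a gene, merged over its transcripts. Shares and levels per kilobase depend on that choice. Aldh1a3, a further retinal dehydrogenase gene, was named after its values were seen. It stood at 464 ± 86.6 normalised reads in Mutant and 440 ± 128 in Control cells (SD, n = 4 each, limma adjusted p = 0.828).

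Cyp26b1 encodes the clearing enzyme of the 9 genes. It lies on chromosome 6 from 84571414 to 84593908 on the minus strand. Its level was 95.7, 40.8, 70.5 and 50.4 normalised reads in Mutant libraries 1 to 4, and 72.8, 53.0, 34.4 and 89.3 in Control libraries 1 to 4. The groups covered nearly the same range, with means of 64.3 ± 24.3 in Mutant and 62.4 ± 23.8 in Control cells (SD, n = 4 each). The log2 fold change was 0.05 (95% interval -0.67 to 0.78, limma adjusted p = 0.947), and its sign turned when Mutant 1, Mutant 3 or Control 3 was left out. The related Cyp26a1, named after its values were seen, was below the filter at 2.8 to 13.3 normalised reads in Mutant and 4.2 to 13.4 in Control libraries.

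Within each group, Cyp26b1 and Aldh1a1 were both lowest in the library with the fewest stromal markers, Mutant 2 among Mutant and Control 3 among Control libraries. These libraries were also the lowest of their groups for maturing tubule, ureteric bud, early nephron, endothelium and leukocyte markers. Markers of maturing tubule, 9 genes of which none was at 0, summed to between 4265 and 10406 normalised reads in Mutant and between 2419 and 8970 in Control libraries. Those of ureteric bud and collecting duct, 12 genes with none at 0, summed to between 2102 and 5553 in Mutant and between 1027 and 4821 in Control libraries. Of the lists for stroma, maturing tubule and ureteric bud, 0 genes were called in either direction, against 8.43% of all tested genes. The sums spread widely within groups, so 0 calls does not show that these cells were equally present. The part of other cell types in the levels of Cyp26b1 and Aldh1a1 was not tested.

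**Figure D2:**
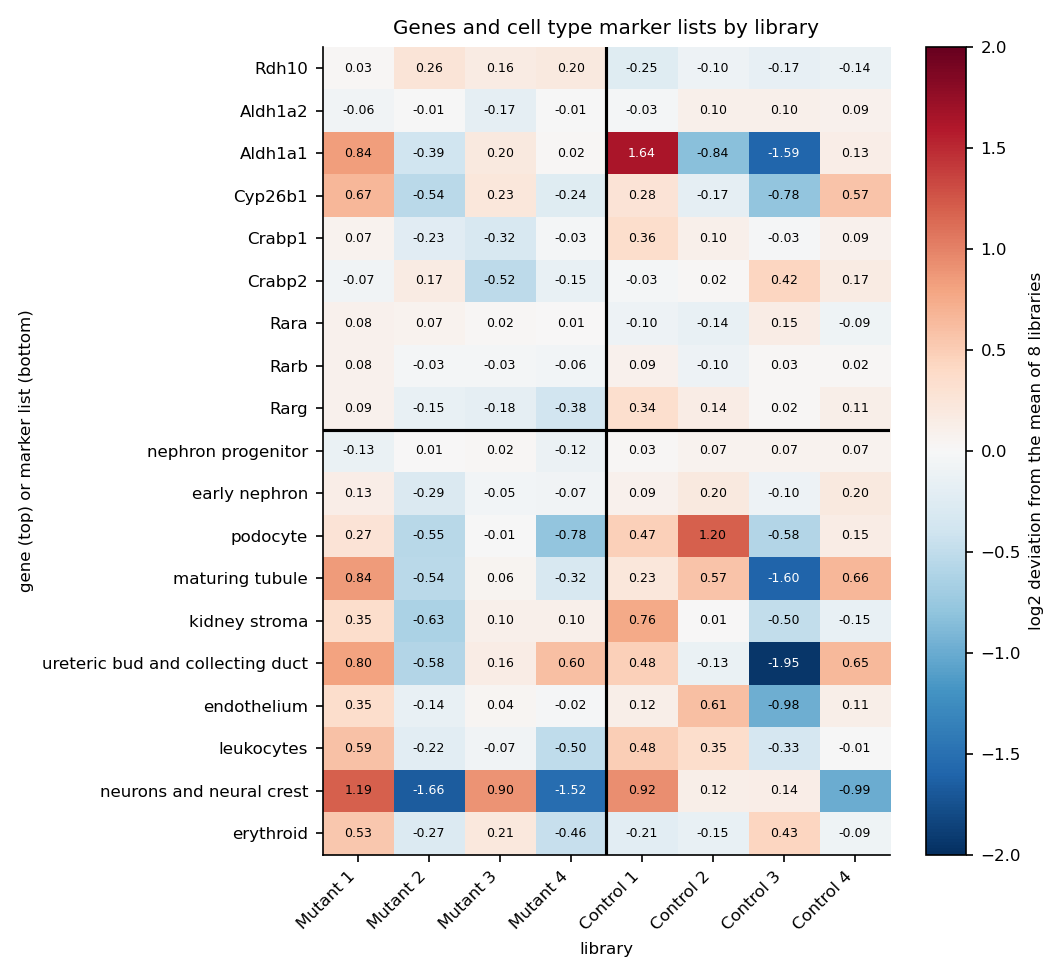
Log2 deviation of each library (columns, Mutant before Control) from the mean of the 8 libraries, for the 9 genes and for each marker list (rows), with the value printed in each cell. Mutant 2 and Control 3 stand low in the rows for maturing tubule, kidney stroma and ureteric bud, and in those for Cyp26b1 and Aldh1a1. Both are also negative in the rows for early nephron, podocyte, endothelium and leukocytes. Rdh10 is positive in every Mutant and negative in every Control library.

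The cellular retinoic acid binding proteins carry retinoic acid inside the cell, CRABP2 by delivering it to receptors. Neither gene was called, and both had a lower mean in Mutant cells. Crabp1, on chromosome 9 from 54764748 to 54773110, had 177, 144, 135 and 165 normalised reads in Mutant libraries 1 to 4, and 216, 181, 166 and 180 in Control libraries 1 to 4. Only Mutant 1 reached into the Control range. The means were 155 ± 19.3 in Mutant and 186 ± 21.6 in Control cells (SD, n = 4 each), with a log2 fold change of -0.26 (95% interval -0.55 to 0.03, limma adjusted p = 0.268). Crabp2, on chromosome 3 from 87948666 to 87953376, had 1400, 1653, 1021 and 1321 normalised reads in Mutant libraries 1 to 4, and 1435, 1489, 1967 and 1646 in Control libraries 1 to 4. Mutant 2 was above 3 of the 4 Control libraries. The means were 1349 ± 261 in Mutant and 1634 ± 239 in Control cells (SD, n = 4 each), with a log2 fold change of -0.29 (95% interval -0.62 to 0.05, limma adjusted p = 0.291). Without Mutant 3 it was -0.16 and without Mutant 2 and Control 2 together -0.43, uncalled in both fits. Per kilobase, Crabp2 took 83.81 ± 2.46% of the sum of the pair in Mutant and 83.99 ± 3.20% in Control cells (SD, n = 4 each).

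All 3 retinoic acid receptor genes were transcribed in both groups, and 0 were called. Rara, on chromosome 11 from 98927818 to 98974942, had 2334, 2308, 2229 and 2212 normalised reads in Mutant libraries 1 to 4, and 2061, 1996, 2441 and 2072 in Control libraries 1 to 4. Control 3 was the highest of the 8 libraries and the other Control libraries were the lowest. The means were 2271 ± 59.3 in Mutant and 2143 ± 202 in Control cells (SD, n = 4 each), with a log2 fold change of 0.09 (95% interval -0.06 to 0.24, limma adjusted p = 0.48). Without Control 3 it was 0.15 (limma adjusted p = 0.143) and without Control 2 it was 0.06 (limma adjusted p = 0.749). The snRNA gene Gm22061 is annotated inside Rara on the same strand.

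Rarb, on chromosome 14 from 16430839 to 16819156 on the minus strand, is the receptor gene known to be induced by its own ligand through the repeat printed above. It had 1889, 1747, 1748 and 1720 normalised reads in Mutant libraries 1 to 4, and 1897, 1668, 1824 and 1810 in Control libraries 1 to 4. The Mutant values all lay inside the Control range. The means were 1776 ± 76.5 in Mutant and 1800 ± 95.7 in Control cells (SD, n = 4 each), and the log2 fold change was -0.02. Its 95% interval, -0.15 to 0.11, was the narrowest of the 9 genes, with a limma adjusted p of 0.893. Top2b and the antisense transcript Gm48162 overlap Rarb on the other strand, so some of its reads may belong to them if strand was not used.

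Rarg, on chromosome 15 from 102234938 to 102257517, was the gene nearest to a call after Rdh10. It had 527, 447, 437 and 381 normalised reads in Mutant libraries 1 to 4, and 628, 546, 503 and 534 in Control libraries 1 to 4. Mutant 1 lay inside the Control range and the other Mutant libraries were below it. The means were 448 ± 60.1 in Mutant and 553 ± 53.3 in Control cells (SD, n = 4 each). The log2 fold change was -0.31 (SE 0.11, 95% interval -0.55 to -0.07), with an unadjusted p of 0.0155 and a limma adjusted p of 0.113 over all genes. The authors' deposited table gives -0.30 with an adjusted p of 0.084. Without Mutant 1 the fold change was -0.39 and would be called, with a limma adjusted p of 0.0409, and without any other single library it was not.

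**Figure D3:**
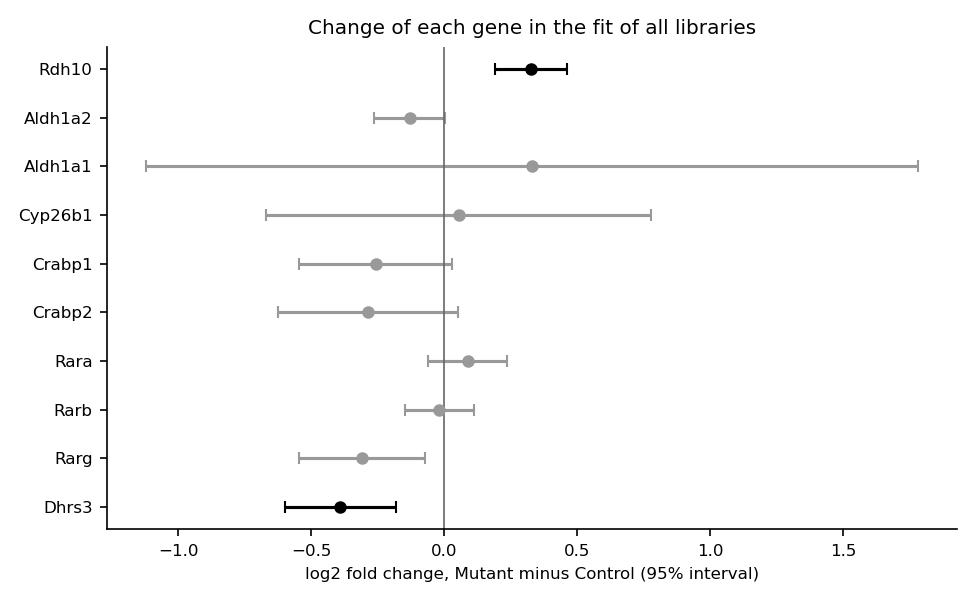
Log2 fold change, Mutant minus Control, of the 9 genes, ordered by role from synthesis to receptors, and of Dhrs3 (bottom), with 95% intervals from limma (horizontal axis), called genes in black and the others in grey. The interval of Rdh10 runs from 0.19 to 0.46, that of Dhrs3 from -0.60 to -0.18 and that of Aldh1a1 from -1.12 to 1.78.

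Among the receptors, Rara took 54.07 ± 1.07% of the summed level per kilobase in Mutant and 50.95 ± 2.68% in Control cells (SD, n = 4 each). Rarb took 35.04 ± 0.46% in Mutant and 35.54 ± 1.34% in Control cells (SD, n = 4 each). Rarg had the smallest share, 10.89 ± 1.01% in Mutant and 13.51 ± 1.5% in Control cells (SD, n = 4 each). The open reading frames of the 3 receptors are between 73.0% and 77.9% identical, further apart than those of Aldh1a1 and Aldh1a7. The partner receptor genes, named after their values were seen, were not called. Rxra stood at 2278 ± 172 normalised reads in Mutant and 2560 ± 119 in Control cells (SD, n = 4 each, log2 fold change -0.17, limma adjusted p = 0.145). Rxrb stood at 3766 ± 243 in Mutant and 4043 ± 331 in Control cells (SD, n = 4 each, limma adjusted p = 0.436). Rxrg was near the minimum for testing, at 15.7 ± 3.75 in Mutant and 10.8 ± 2.92 in Control cells (SD, n = 4 each, log2 fold change 0.51, limma adjusted p = 0.353).

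On the scale of normalised reads per kilobase of merged annotated exon, the 9 genes covered over 3 orders of magnitude. That span and the order below depend on these lengths, which were 4937 bases for Aldh1a1 and 2066 for the similar Aldh1a7. Aldh1a2 stood at 13471 to 15118 in Mutant and 14878 to 16351 in Control libraries, rank 100 of the 14928 tested genes with an exon length. Rdh10 followed at 2985 to 3504 in Mutant and 2460 to 2727 in Control libraries. Crabp2 came next, at 772 to 1251 in Mutant and 1086 to 1488 in Control libraries. Below it came Rara, Rarb, Crabp1 and Rarg, the last at 89.3 to 124 in Mutant and 118 to 147 in Control libraries. Cyp26b1 and Aldh1a1 were lowest, at 7.62 to 17.9 and 4.13 to 9.98 in Mutant libraries and at 6.43 to 16.7 and 1.69 to 17.5 in Control libraries. The order was the same in both groups, and of the 8 pairs of neighbours in it only Cyp26b1 and Aldh1a1 had overlapping libraries. The median tested gene stood at 225, below Rarb and above the highest Mutant library of Crabp1.

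**Figure D4:**
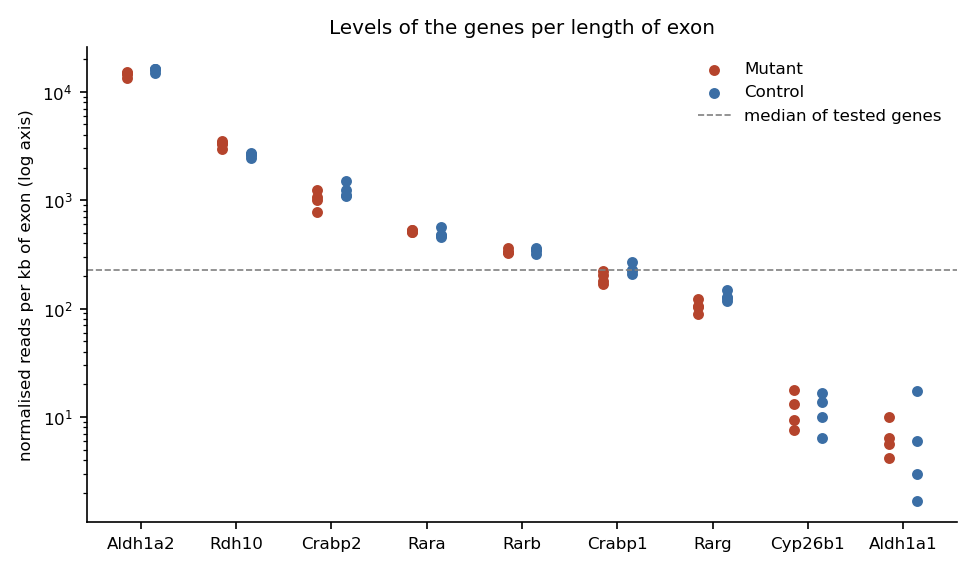
Normalised reads per kilobase of exon (log axis) of the 9 genes in each Mutant and Control library, ordered by level, with the median of tested genes (225) as a line. Aldh1a2, Rdh10, Crabp2, Rara and Rarb lie above the line, and Crabp1 spans it in Control libraries.

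The genes with the profile most like a member over the 8 libraries were found by the root mean square difference of standardised log2 values among 12219 genes. For Aldh1a2 they were Ahcy (difference 0.101), which encodes S-adenosylhomocysteine hydrolase, and Gstp2 (0.105), which encodes a glutathione S-transferase. Neither was called, with log2 fold changes of -0.30 and -0.19 and limma adjusted p-values of 0.0547 and 0.128. For Rdh10 they were the pseudogene Gm12070 (difference 0.146) and Jsrp1 (0.163), which encodes a protein of the sarcoplasmic reticulum in muscle. Both were called higher in Mutant cells, with log2 fold changes of 1.81 and 0.53 and limma adjusted p-values of 0.00053 and 0.0237. They were picked for likeness to a called gene in these same libraries. Their direction and calls therefore largely follow from the choice and are no separate result.

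The rest of the pathway was read from 5 wider lists with 74 genes, of which 71 were in the table and 57 were tested. In limma 0 of the 57 rose, Dhrs3 fell and 56 were not called, against 5.4% called higher and 3.03% lower of all tested genes. Their median log2 fold change was -0.02. At an unadjusted p under 0.05, 4 of the 57 were higher and 9 lower, against 12% higher and 11.2% lower of all tested genes and 23.3% in either direction. The same shares over all tested genes, called and unadjusted, are those to set beside the counts of each list below. The authors' deposited table calls 5 of them, with Ep300 higher and Dhrs3, Hoxd4, Rdh13 and Zfp423 lower in Mutant cells, and these names come from that table and not from the rule for named genes.

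Of the genes for retinol uptake, transport and storage, 7 of 12 were tested and 0 were called, with 1 higher and 0 lower at an unadjusted p under 0.05. Lrp2, which encodes the endocytic receptor megalin and is also a proximal tubule gene, varied widely within groups, at 2689 ± 1119 normalised reads in Mutant and 2738 ± 940 in Control cells (SD, n = 4 each, limma adjusted p = 0.974).

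Of the genes for oxidation and reduction of retinol and retinal outside the 9, 17 of 22 were tested and Dhrs3 alone was called, with 1 higher and 3 lower at an unadjusted p under 0.05. Adh5, an alcohol dehydrogenase gene, stood at 7248 ± 361 normalised reads in Mutant and 7032 ± 411 in Control cells (SD, n = 4 each, limma adjusted p = 0.722). Dhrs4 stood at 1658 ± 42.3 in Mutant and 1656 ± 102 in Control cells (SD, n = 4 each, limma adjusted p = 0.983). Among genes for binding and clearance, 3 of 5 were tested and 0 called, with 0 higher and 1 lower at an unadjusted p under 0.05. Fabp5, whose product can carry retinoic acid, stood at 5533 ± 781 in Mutant and 5099 ± 560 in Control cells (SD, n = 4 each, limma adjusted p = 0.565). Por, which encodes the reductase that supplies electrons to P450 enzymes, stood at 4226 ± 192 in Mutant and 4729 ± 263 in Control cells (SD, n = 4 each, limma adjusted p = 0.127).

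Of the retinoid X receptors and receptor cofactors, 16 of 17 were tested and 0 called, with 1 higher and 3 lower at an unadjusted p under 0.05. Ncor1, a corepressor gene, stood at 11485 ± 682 normalised reads in Mutant and 11798 ± 455 in Control cells (SD, n = 4 each, limma adjusted p = 0.741).

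Of 24 genes known to respond to retinoic acid, 19 were tested, and Dhrs3, which is also on the oxidation and reduction list, was the only one called. At an unadjusted p under 0.05, 1 of the 19 was higher and 3 were lower. Their median log2 fold change was -0.03, with 8 positive and 11 negative. Meis2, which encodes a homeodomain protein, stood at 11396 ± 575 normalised reads in Mutant and 11611 ± 635 in Control cells (SD, n = 4 each, limma adjusted p = 0.842). Cyp26a1, Stra8, Cdx1, Foxa1 and Gata4 were below the filter.

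**Figure D5:**
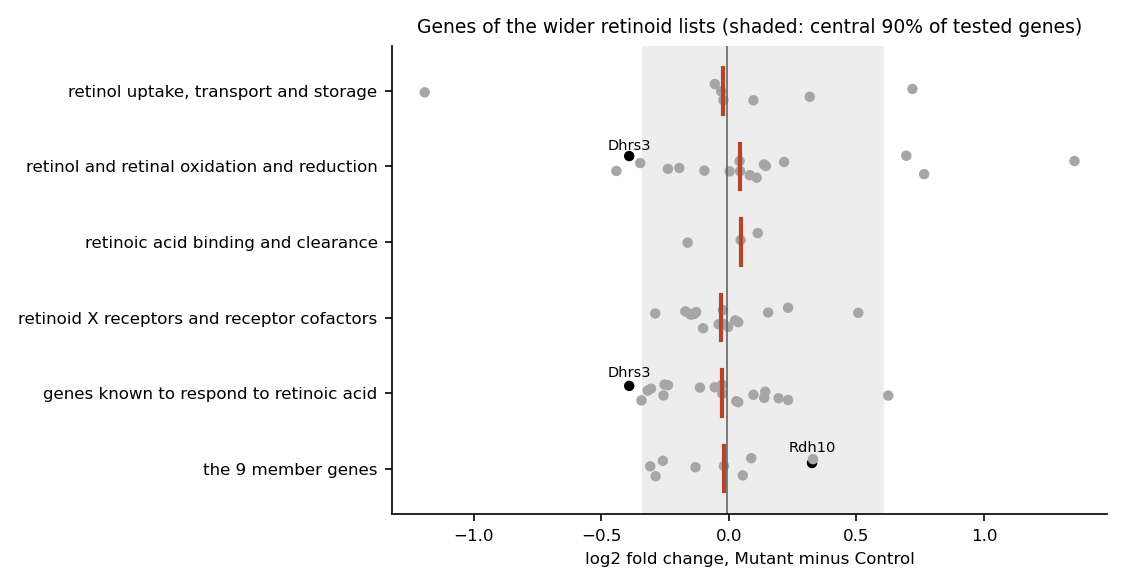
Log2 fold change, Mutant minus Control, of each tested gene of the 5 wider lists and of the 9 genes (rows), with list medians as bars, called genes in black and the central 90% of all tested genes shaded (-0.34 to 0.60). The medians of the 5 lists lie between -0.03 and 0.05, and Dhrs3 and Rdh10 are the called genes.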

How the data were processed

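RNA sequencing libraries of 4 Mutant and 4 Control samples were grouped by genotype. The submitters' processing notes name mm10, STAR 2.5.3a and DESeq2 1.18.1. The authors' read counter, annotation and use of strand were each not given in the sources used here. Each deposited signal, for a gene in a library, is its read count divided by size factors and, as the values show, divided a second time by the same factors recycled down the genes, then rounded. Both steps could be undone for 20254 of 20254 genes within a relative tolerance of 1e-09. The deposited table also holds the authors' log2 fold changes, p-values and a score; the first 2 were used for comparison, while the score was set aside.

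Reads divided a single time by the size factors, called normalised reads, were put on the scale log2(value + 1). Genes with at least 10 in at least 4 libraries were tested with limma 3.58.1 in R 4.3.3, with trended, robust variances, all 8 libraries and no covariate. Two-sided p-values were adjusted over 15381 genes (Benjamini-Hochberg). A count model had been planned only for the case that the deposited columns held counts. They hold a signal, so limma stayed the main test, and limma-voom on the recovered whole reads was an alternative. The fit was also run on simulated counts drawn independently for each library, a simpler setting than these data, so its outcome is not used as support. Totals of 37252683 to 46515762 reads mean that precision is set mainly by the spread between libraries, except near the minimum.

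Exon lengths were matched by gene for 19590 of 20254 genes, and promoters come from RefSeq (GRCm38.p6). The 9 genes, the wider lists and the markers were chosen with earlier results of these data known. Genes named are the 9, Vhl, of each wider list the called genes and the 2 with the highest mean, and the 2 nearest profiles of Aldh1a2 and of each called member; other names are stated as such. Values of a few genes that this rule names are not reported here. Alternatives were other pseudocounts, filters, scalings and weights, a replicate block, the authors' comparison and libraries left out.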

Additional observations from a re-analysis of the deposited data

Results flagged for a closer look

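Libraries far from the others of their group were looked for in 42 pairs of a gene and a group, and 3 were found. Chance alone gives about 1 in 20, so 3 of 42 is near that rate. Aldh1a2 in Control 1 was 33683 normalised reads, with the nearest other Control library at 36517. Rara in Control 3 was 2441, with the nearest other Control library at 2072. Rarb in Mutant 1 was 1889, with the nearest other Mutant library at 1748. With the library concerned left out, the sign of each gene's log2 fold change was as with all 8 libraries, and none of the 3 genes was then called.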

How the results depend on the processing

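Over 20 alternatives, 219 fold changes of 11 results were recomputed: 202 kept their direction and side of the threshold, 7 lost a call, 2 gained one and 8 changed sign. Those of Aldh1a2, Crabp1, Crabp2, Rara and Vhl kept both in all 20, while Rara ranged from 0.06 to 0.15 and Crabp2 from -0.39 to -0.16 with 1 library left out. Rdh10 kept its direction in all 20, at 0.29 to 0.37 (limma adjusted p 0.00427 to 0.0351) with 1 library left out; it was not called on the deposited values as they are (0.33, adjusted p = 0.147) or without Mutant 2 and Control 3 (0.29, adjusted p = 0.0563). Rarg lay between -0.39 and -0.23 with 1 library left out, and was called without Mutant 1 (-0.39, adjusted p = 0.0409) and with library quality weights (-0.37, adjusted p = 0.0197). Dhrs3 lay between -0.47 and -0.31 with 1 library left out, and lost its call in 5 of these 8 fits. Aldh1a1 was -0.12 in the authors' deposited table, ranged from -0.14 (without Control 3) to 0.93 with 1 library left out, and could not be tested at a minimum of 50. Cyp26b1 was -0.30 with quality weights and -0.0064 without Mutant 2 and Control 3. With 1 library left out it ranged from -0.20 (without Control 3) to 0.25, and was -0.16 without Mutant 1 and -0.01 without Mutant 3. Rarb ranged from -0.0549 (without Control 2) to 0.0069 (without Control 1).

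The 1297 called genes became 697 on the deposited values, 743 without Mutant 2 and Control 3, 637 without Mutant 2 and Control 2, 2996 with quality weights, and 749 to 1572 with 1 library left out. Called genes of the wider lists, 1 in the report, numbered 5 in the authors' deposited table, 10 with quality weights, and 0 to 3 with 1 library left out. The labels do not say whether libraries of the same number were paired. Deviations of same-number libraries correlated at 0.213, -0.143, -0.144 and 0.063, which cannot settle it with 4 libraries in a group. Both libraries with little Xist, Mutant 2 and Control 2, bear the same number. A replicate block gave 766 called genes and changed no call among the 9 genes, Dhrs3 and Vhl. The causes of these changes were not tested. Count models (edgeR and DESeq2) were not run, although whole reads were recovered. Aldh1a1 and Cyp26b1 stood at under 100 normalised reads in each library, and how much of their spread is counting error was not tested.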
